A study of Homo sapiens with 4 samples.

Results

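The genes described here encode chaperones and folding enzymes of the endoplasmic reticulum (ER). The set had 10 members: HSPA5, HSP90B1, CALR, CANX, PDIA3, PDIA4, PDIA6, P4HB, DNAJB11 and HYOU1. They were looked up by gene name among the 9271 transcripts, 1 per gene, listed in at least 1 of 4 ribosome profiling libraries, and 8 of the 10 were listed in all 4 libraries. HSPA5 and DNAJB11 were in none of the tables.

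In ribosome profiling only the stretches of mRNA covered by a ribosome survive nuclease digestion and are sequenced, so a read count reports ribosomes on a transcript. The libraries came from HEK293T, a human embryonic kidney line that carries the SV40 large T antigen. Of 4 libraries, 2 were from untreated cells (Untreated A and B, G418 at 0 µg/mL) and 2 from cells given the aminoglycoside G418 at 500 µg/mL for 24 h (G418 A and B). All 4 share the same line. The study calls such pairs biological replicates, while the labels do not say what A and B separate, so p-values measure the spread between these libraries. The tables held 6082600, 2440204, 5677910 and 4763858 reads on these transcripts in Untreated A, Untreated B, G418 A and G418 B. No exact permutation test (two-sided) of 2 libraries against 2 can give p below 0.333. Except where DESeq2 is named, p-values below come from edgeR's quasi-likelihood test, which borrows the spread across transcripts. Of 10 genes listed as typical of HEK293T, 8 were in at least 1 table, whereas 3 of 16 markers of other cell types were. VIM led at 533 to 658 reads per kilobase of CDS after scaling to library depth (RPKM). NEFM, NEFL, ENO2 and KRT18 lay between 15.5 and 54.2 RPKM. LHX1 and KRT8 were lower, at 1.60 to 2.60 and 1.45 to 2.13 RPKM. COL1A1, a marker of other cell types, stood at 3.59 to 5.54 RPKM. PAX2 was not in all 4 tables, and CD24 and CDH2 were in none.

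Proteins of the secretory pathway enter the ER unfolded, and resident chaperones bind them until they fold. HSPA5 (BiP) is the ER member of the HSP70 family, DNAJB11 delivers substrates to it, HYOU1 exchanges its nucleotide, and HSP90B1 (GRP94) is the ER member of the HSP90 family. CALR and CANX are lectins that hold glycoproteins by their sugar chains, and PDIA3 pairs with them to form disulphide bonds. PDIA4, PDIA6 and P4HB are further protein disulphide isomerases. Several of these proteins end in a KDEL-type signal, which KDEL receptors read to return escaped proteins from the Golgi. That signal must be at the very C-terminus, and a ribosome that reads through the normal termination codon (NTC) adds residues after it, up to the first in-frame termination codon of the 3′UTR (3′TC). G418 binds the decoding centre of the ribosome and lets near-cognate tRNAs decode stop codons.

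The stop codons that set what is added are shown for the 6 members measured at the stop codon of their main protein, and for HSPA5, which was not measured. Each line gives 12 bases of coding sequence, the NTC in capitals and the first 12 bases of the 3′UTR, 5′ to 3′ on the transcript strand and written as DNA, from the GENCODE version 44 canonical transcript on hg38.
HSPA5: aaagatgagttgTAGacactgatctgc
HSP90B1: aaagatgaattgTAAattatactctca
CALR: aaggacgagctgTAGagaggcctgcct
CANX: ccacgaagagagTGAaacaatcttaag
PDIA3: caggaggatctcTAAagcagtagccaa
PDIA4: aaggaagagcttTGAaggcctgaggtc
PDIA6: aaagatgagttgTGAgagccacaacag

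The last 3 codons encoded 2 acidic residues and then leucine, the core of the KDEL-type signal, in 8 of the 10 canonical transcripts. CANX, a membrane protein, and DNAJB11 were the exceptions. The NTC of HSPA5 lies on the minus strand at chr9:125236592-125236594, that of HSP90B1 on the plus strand at chr12:103947660-103947662, and that of CALR on the plus strand at chr19:12943911-12943913. Those of CANX and PDIA3 lie on the plus strand at chr5:179728642-179728644 and chr15:43771216-43771218. Those of PDIA4 and PDIA6 lie on the minus strand at chr7:149003794-149003796 and chr2:10784258-10784260. Each is the last codon of the annotated coding sequence (CDS), with the 3′UTR directly after it.

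The number of codons between the NTC and the first 3′TC differed among members. It was 8 in CALR, 27 in CANX, 29 in PDIA6, 30 in HSP90B1, 42 in PDIA3 and 51 in PDIA4, against a median of 22 over the 8825 transcripts of the tables with an in-frame 3′TC. HSPA5 has 4 such codons and DNAJB11 has 1 in GENCODE version 44, and no transcript in the tables had fewer than 5. P4HB and HYOU1 were counted on transcript models that end elsewhere. The deposited P4HB model had a CDS of 321 nt ending in UGAC, whereas the canonical transcript has 1527 nt ending in UAAU. The deposited HYOU1 model had 2034 nt ending in UGAG, whereas the canonical transcript has 3000 nt ending in UAAC. The readthrough values of these 2 members therefore do not describe the stop codon that ends the main protein.

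The first comparison asked whether ribosomes on the coding sequences of ER chaperones changed with G418. No member passed the test in either direction. All 8 had fitted log2 fold changes above 0, as did 4280 of all 8494 transcripts tested. Those of the members ran from 0.03 for HYOU1 to 0.21 for PDIA4 and PDIA6. P4HB rose from Untreated A to G418 A and fell from Untreated B to G418 B. PDIA3, HYOU1 and P4HB changed sign when certain single libraries were left out. Ribosome profiling counts alone cannot tell a change in mRNA from a change in translation, and fewer cells cannot be told from less RNA per cell. CDS levels are given as RPKM, which divides by the counted CDS length and can be compared between genes. Each fold change is a difference between conditions in CDS counts scaled by trimmed mean of M values (TMM).

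Of the lectin chaperones, CANX had the highest level of the set. Its CDS RPKM was 781 in Untreated A, 645 in Untreated B, 865 in G418 A and 749 in G418 B. The G418 libraries were each above the untreated library of the same letter, but the conditions overlapped. They also overlapped in TMM-scaled CDS counts (CPM, at a common library size), at 2191 and 1971 untreated against 2319.6 and 2165 with G418. The fitted log2 fold change was 0.11 ± 0.08 (SE, n = 2 per condition), with an edgeR adjusted p of 0.45. CALR, the soluble counterpart of CANX, had 644, 592, 750 and 665 CDS RPKM in the same order of libraries. Its 2 G418 values lay above both untreated values, with a log2 fold change of 0.12 ± 0.08 and an edgeR adjusted p of 0.37.

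HSP90B1 stood at 428 and 336 CDS RPKM in the untreated libraries and at 474 and 423 in the G418 libraries. These RPKM values overlapped, since Untreated A was slightly above G418 B, whereas the TMM-scaled counts did not, at 1638 and 1398 CPM untreated against 1734 and 1663 with G418. Its log2 fold change was 0.16 ± 0.08, with an edgeR adjusted p of 0.24. HYOU1, a distant HSP70 relative, had 83.4, 77.2, 86.2 and 85.6 CDS RPKM on the shorter model, the lowest level of the set, and a log2 fold change of 0.03 ± 0.09.

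Among the disulphide isomerases, PDIA4 and PDIA6 had the largest fitted differences. PDIA4 had 230.5 and 215 CDS RPKM untreated against 279.9 and 262 with G418, and PDIA6 had 343 and 311 against 418.2 and 376. In both genes the conditions did not overlap, in RPKM or in TMM-scaled counts. The fitted log2 fold changes were 0.21 ± 0.08 for each, or 1.16-fold for PDIA4 and 1.15-fold for PDIA6, with an edgeR adjusted p of 0.11 for both. PDIA3 had 309 and 257 CDS RPKM untreated against 323 and 301 with G418, and a log2 fold change of 0.07 ± 0.08. Its conditions overlapped in RPKM and in TMM-scaled counts, at 738 and 667 CPM untreated against 736 and 740.2 with G418. P4HB, on its counted CDS of 288 nt, had 148 and 226 against 202 and 217. The untreated libraries of P4HB spanned both G418 values, and its log2 fold change was 0.15 ± 0.14.

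**Figure D1:**
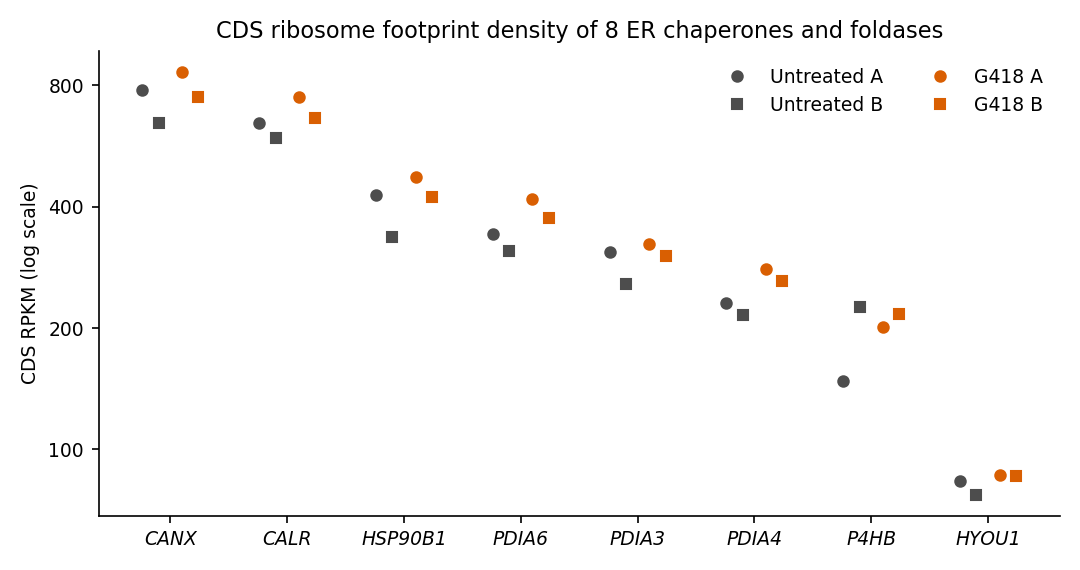
CDS ribosome footprint density (RPKM, log axis) of 8 ER chaperones and foldases in the 4 libraries, ordered by the mean of the untreated libraries. Points are single libraries, with circles for A and squares for B. CANX and CALR are highest and HYOU1 is lowest in every library, and the untreated libraries of P4HB differ most by ratio, at 148 and 226 RPKM.

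By the mean of the untreated libraries the order of levels was CANX (713 ± 95.7 RPKM, SD, n = 2), CALR (618 ± 36.9), HSP90B1 (382 ± 65.3), PDIA6 (327 ± 22.6), PDIA3 (283 ± 37.2), PDIA4 (223 ± 10.9), P4HB (187 ± 55.2) and HYOU1 (80.3 ± 4.35). In untreated cells the neighbours HSP90B1 and PDIA6 overlapped, as did PDIA4 and P4HB. CANX and CALR were separated by less than the SD of CANX. The order was the same in G418, where only CANX and CALR overlapped among neighbours. Over 8568 transcripts in all 4 tables, 168 had a higher untreated mean than CANX and 1441 had a higher one than HYOU1.

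The CDS fit tested 8494 transcripts and called 451 higher and 273 lower in G418, or 5.31% and 3.21%. Against that background 0 of the 8 members were called by edgeR. DESeq2 also called 0 of the 8, beside 109 higher and 134 lower of 7012 transcripts with an adjusted p. An unadjusted edgeR p below 0.05 was found for 2 members (PDIA4 and PDIA6). It was also found for 1940 of the 8494 transcripts, so 2 of 8 is near the background. The median log2 fold change of the 8 members was 0.14, beside 0.00 over all transcripts tested (0.0025). Together the 8 members took 0.730% of CDS reads in Untreated A (95% interval 0.723 to 0.737), 0.686% in Untreated B (0.675 to 0.697), 0.844% in G418 A (0.836 to 0.851) and 0.825% in G418 B (0.817 to 0.834). Both G418 shares were above both untreated shares. Shares divide by library totals, and on that scale the median log2 fold change was 0.11 over all transcripts and 0.24 over the 8 members. These exact binomial intervals, like the others below, cover counting error only.

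The absence of calls depended on the scaling and on the untreated libraries kept, though it held with DESeq2 size factors in edgeR. With library totals in place of TMM factors, the median of all transcripts moved to 0.11 on the log2 scale, the split over all transcripts became 887 higher and 120 lower, and 4 members (CALR, HSP90B1, PDIA4 and PDIA6) passed as higher. The fitted sizes of some members also moved with the untreated library that was left out. HSP90B1 had a log2 fold change of 0.28 without Untreated A and 0.05 without Untreated B. In the same order CANX had 0.19 and 0.03, and PDIA3 had 0.15 and -0.0035. PDIA4 had 0.20 and 0.22, PDIA6 had 0.22 and 0.19, CALR had 0.12 and 0.12, and HYOU1 had 0.02 and 0.03. P4HB had a log2 fold change of -0.25 without Untreated A and 0.48 without Untreated B.

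Other genes of ER folding were read from lists set by function. Of 16 tested BiP cofactors and further ER chaperones, 2 rose and none fell. They were CNPY2, with a log2 fold change of 0.51 ± 0.11 (edgeR adjusted p = 0.0038), and the BiP co-chaperone DNAJC3, with 0.39 ± 0.12 (edgeR adjusted p = 0.032). Of 13 other disulphide isomerases and oxidases 1 rose, ERO1A, the oxidase that recharges disulphide isomerases. Its CDS counts were 493 and 192 untreated against 754 and 690 with G418, with a log2 fold change of 0.71 ± 0.11 (edgeR adjusted p = 6.6e-05). None of 6 ER prolyl isomerases passed, where 2 had an unadjusted edgeR p below 0.05, beside 1940 of all 8494 transcripts.

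Among 20 genes of ER-associated degradation, which sends misfolded proteins to the proteasome, 3 rose and 1 fell. The ubiquitin-conjugating enzyme UBE2J1 had a log2 fold change of 0.63 ± 0.14, whereas the ubiquitin ligase RNF5 stood at -0.46 ± 0.14. Of 19 genes of the translocon, signal peptidase and oligosaccharyltransferase, 1 rose and 3 fell, with a list median of -0.04. SEC61B, a small subunit of the protein-conducting channel, had CDS counts of 1313 and 543 untreated against 828 and 686 with G418, and a log2 fold change of -0.68 ± 0.10 (edgeR adjusted p = 3.1e-05). DAD1, an oligosaccharyltransferase subunit, stood at -0.47 ± 0.09, and the signal peptidase subunit SEC11C at 0.58 ± 0.13.

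The receptors that read the KDEL signal did not pass the test. KDELR1 had CDS counts of 2769, 1006, 2935 and 2306 in Untreated A, Untreated B, G418 A and G418 B, with a log2 fold change of 0.12 ± 0.09. KDELR3, at 93, 34, 118 and 100 counts, had 0.41 ± 0.18 and an edgeR adjusted p of 0.16, and KDELR2 was not tested.

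Of 9 tested sensors and transcription factors of the unfolded protein response, the program that raises ER chaperones when folding fails, 1 rose. It was ATF4, a factor translated more when upstream reading frames are bypassed, with CDS counts of 181 and 85 untreated against 328 and 326 with G418 and a log2 fold change of 0.91 ± 0.14 (edgeR adjusted p = 0.0001). The others stood at 0.15 ± 0.11 for XBP1, -0.04 ± 0.22 for the sensor ERN1 and -0.06 ± 0.10 for the sensor ATF6, and the list's median was -0.04. DDIT3 and EIF2AK3 were not tested.

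Of 18 genes of the cytosolic HSP70 and HSP90 system 1 rose and 2 fell, with a median log2 fold change of -0.03. STUB1, a ubiquitin ligase that works with HSP70, stood at 0.55 ± 0.11. HSPA1A and HSPA1B stood at -0.28 ± 0.08 and -0.31 ± 0.08, but these nearly identical genes share reads and their separate counts are uncertain. None of 9 mitochondrial chaperones and proteases passed, and the median was -0.08. Of these 9, 1 had an unadjusted edgeR p below 0.05, beside 1940 of all 8494 transcripts.

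Of the genes named from these lists as past the threshold, SEC61B alone passed in every alternative. Each of the others missed the threshold without G418 A or without G418 B. ATF4 and ERO1A missed it narrowly, without G418 B, at edgeR adjusted p of 0.0625 and 0.0576. DNAJC3, RNF5, SEC11C and UBE2J1 also missed it with DESeq2, and HSPA1A, HSPA1B and RNF5 missed it with library totals.

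**Figure D2:**
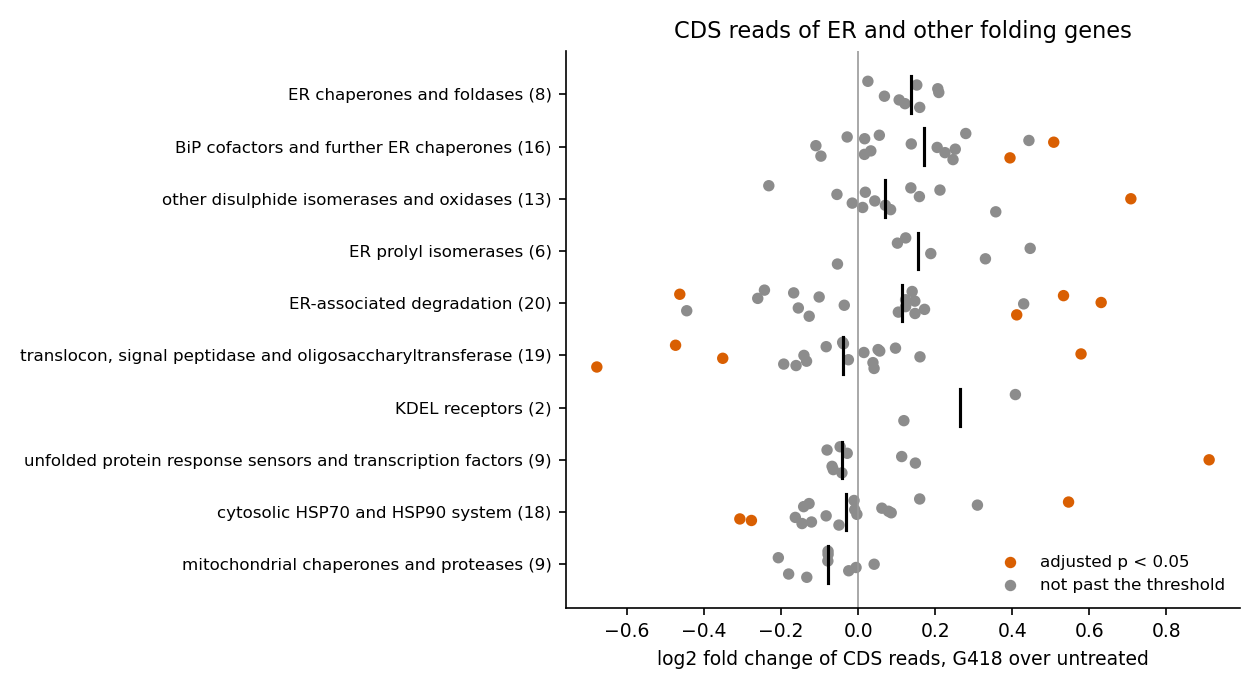
Fitted log2 fold change of CDS reads (G418 over untreated) for the members and for 9 further lists, with the number tested in parentheses. Each point is 1 gene, orange points passed an edgeR adjusted p of 0.05, and black bars are list medians. All 8 members lie between 0.03 and 0.21, and the point farthest to the right is ATF4 at 0.91.

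The second comparison asked how reads after the stop codons of these genes changed with G418. The study found the CDS reading frame kept in 3′UTRs with G418 but lost there in untreated cells. Reading frame was not tested here, so the share of untreated reads there that came from readthrough is not known. The ribosome readthrough score (RRTS) is read density after the NTC, up to and including the first 3′TC, over CDS density of the same library. An RRTS of 1 means as many ribosomes per nucleotide after the stop codon as before it. All 6 members with enough reads for the test had a higher RRTS in G418, and 82.6% of all 2827 transcripts tested were called higher and 0.0707% lower, so 6 of 6 is near the background. The filter of 10 extension reads summed over the 4 libraries was met by CALR, PDIA4 and PDIA6 only through their G418 reads, so the count of called members is no evidence of its own. The background share also moved with the filter, to 66.3% of 4076 transcripts at 5 extension reads and 44.9% of 5815 at 1 read, where 6 of 6 and 6 of 7 members were called. The fitted rises ran from 2.67-fold in PDIA3 to 18.9-fold in PDIA4.

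PDIA4 had the lowest untreated RRTS of these 6 members. It had 3 extension reads in Untreated A and 1 in Untreated B, for RRTS of 0.00972 and 0.00797, against 69 and 50 reads and RRTS of 0.196 and 0.166 with G418. The counts separated completely, and the pooled ratio of 19.8 had a counting interval of 7.53 to 73.8 (95%, exact binomial). Its fitted log2 fold change was 4.24 ± 0.48 (edgeR adjusted p = 1.1e-17). PDIA6 went from 6 and 3 extension reads to 72 and 73, with RRTS of 0.0233 and 0.0295 untreated and 0.244 and 0.301 with G418. Its log2 fold change was 3.40 ± 0.38 (edgeR adjusted p = 3.4e-18).

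PDIA3 already had a high score without the drug. Its untreated RRTS was 0.103 in A, from 35 extension reads (95% Poisson interval 0.0718 to 0.143), and 0.155 in B, from 19 reads (0.0932 to 0.242). With G418 it was 0.337 and 0.296, from 112 and 84 reads. Both untreated values lay above those of the other 5 tested members, and the log2 fold change of 1.42 ± 0.23 was the smallest of the 6 (edgeR adjusted p = 3.4e-09). The 95% intervals of the PDIA3 and PDIA4 changes, 0.97 to 1.86 and 3.30 to 5.17, did not overlap, and the difference itself was not tested. PDIA3 has processed pseudogenes, and the share of reads from them was not tested.

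CALR, whose extension is the shortest of the 6, had RRTS of 0.0331 and 0.0207 untreated, from 4 and 1 reads. With G418 it reached 0.341 and 0.411, from 45 and 44 reads, the highest scores of the set. The counted region, 3′TC codon included, was 21 nt in CALR and 150 nt in PDIA4. The share of reads at that codon was not tested. The fitted log2 fold change was 3.61 ± 0.49 (edgeR adjusted p = 1.6e-12), and the pooled ratio of 12.6 had a counting interval of 5.20 to 39.7. CANX had 22 and 8 extension reads and RRTS of 0.0405 and 0.0409 untreated, against 87 and 72 reads and RRTS of 0.154 and 0.161 with G418. The replicates of CANX lay close together in each condition, and its log2 fold change was 1.94 ± 0.28 (edgeR adjusted p = 1.7e-11).

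HSP90B1 had the lowest score in G418 of the 6 members tested. Its RRTS was 0.0150 and 0.0440 untreated, from 5 reads in each library, and 0.0867 and 0.0887 with G418, from 30 and 25 reads. Both untreated scores were below both G418 scores, but the Poisson intervals of Untreated B (0.0143 to 0.103) and G418 A (0.0585 to 0.124) overlapped. The fitted log2 fold change was 1.93 ± 0.47 (edgeR adjusted p = 0.00013). It missed the threshold with DESeq2 (adjusted p = 0.0532) and without Untreated A, where the log2 fold change was 0.99 with an edgeR adjusted p of 0.126.

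**Figure D3:**
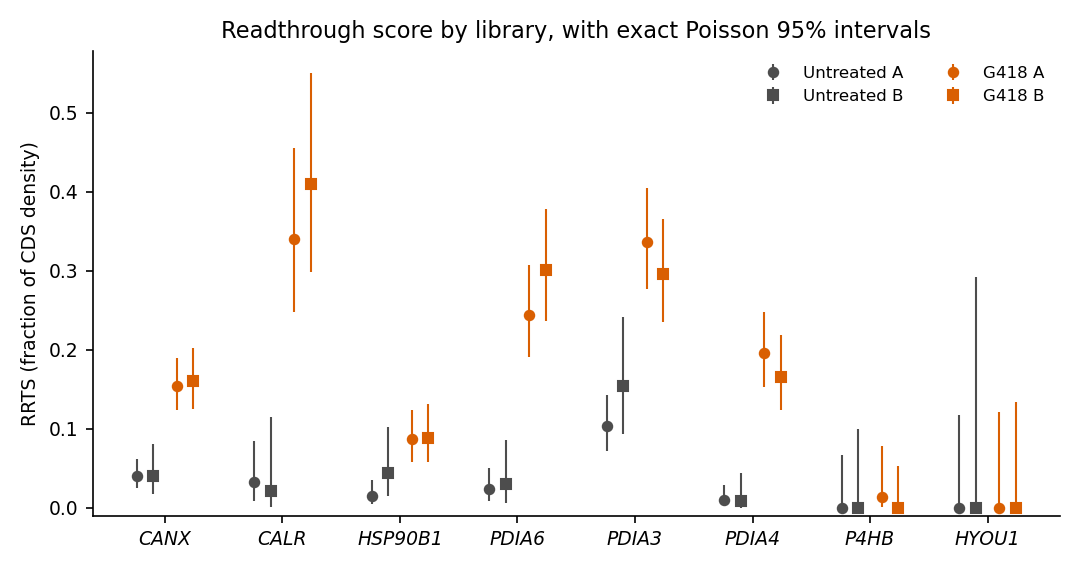
RRTS (density after the NTC as a fraction of CDS density) of each member in the 4 libraries, with exact Poisson 95% intervals of the extension reads. Circles are A and squares are B, in the order untreated then G418. CALR reaches 0.411 in G418 B, PDIA3 stands at 0.103 and 0.155 without the drug, and HYOU1 is at 0 in all 4 libraries.

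The 2 members counted on other models had almost no reads after their deposited stop codons. HYOU1 had 0 extension reads in all 4 libraries. At CDS density 43.9 reads would have fallen there in the pooled untreated libraries and 57.9 in the pooled G418 libraries, so 0 reads allow an RRTS of up to 0.0684 and 0.0518. P4HB had 0 extension reads in each untreated library, which pooled allow up to 0.0325, and 1 and 0 reads in G418 A and B. Both were below the minimum of 10 extension reads and were not tested. These bounds take every CDS read of a model as a ribosome that reaches the stop codon of that model. Reads from other transcripts of the 2 genes were not separated, so the bounds may be too low.

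**Figure D4:**
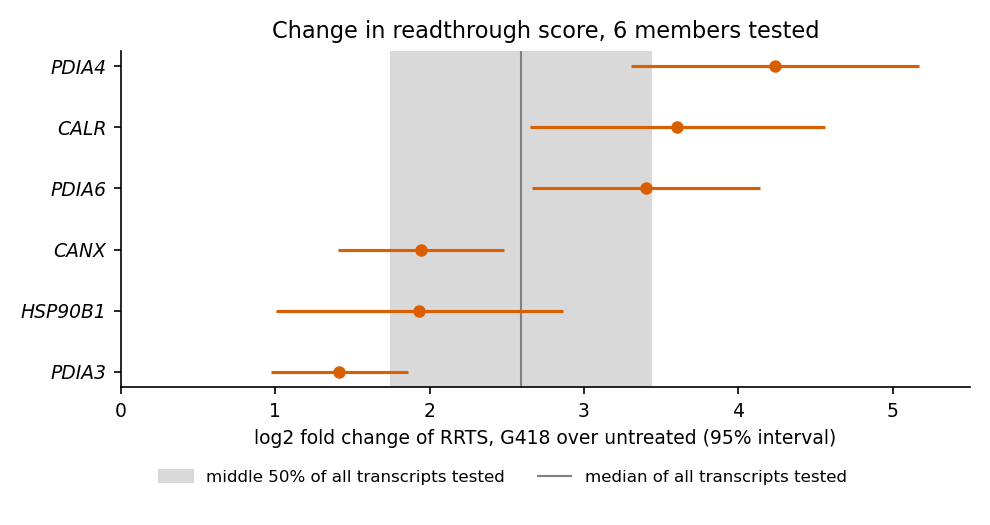
Fitted log2 fold change of RRTS (G418 over untreated) with 95% intervals for the 6 members tested. The band and line are the middle 50% and the median (2.59) of all 2827 transcripts tested, with those lacking untreated reads set at a lower bound from 3 reads, so that the band is itself a lower limit. PDIA3 lies lowest at 1.42 and PDIA4 highest at 4.24.

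Over all transcripts tested the median fitted log2 fold change of RRTS was 3.18, but 568 of the 2827 had no extension read in either untreated library and their fitted values depend on the prior count. With those at a lower bound, computed from 3 reads over the untreated libraries, the median was 2.59 (quartiles 1.75 and 3.43). The median of the 6 members was 2.67. Over the 2259 transcripts with an untreated extension read it was 2.82. The fitted change of PDIA3 was below the first quartile on both scales, and those of CANX and HSP90B1 were below it among fitted values (quartiles 2.17 and 4.70) but not among bounds. Those of CALR, PDIA4 and PDIA6 lay within the quartiles of fitted values, and the quartiles with bounds are lower limits, so no place above them can be told.

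Stop codons differ in how often they are read through, so each member was set beside transcripts with the same stop codon and following base and enough mRNA reads by the study's own minimum. In G418 the pooled RRTS of CALR was 0.372, at percentile 82.6 of 445 transcripts with UAGA, and that of PDIA3 was 0.318, at percentile 85.4 of 749 with UAAA. HSP90B1 ends in the same UAAA and was at 0.0876, percentile 39.3. PDIA6 was at percentile 66.9 of 1375 transcripts with UGAG. CANX and PDIA4 both end in UGAA and lay at percentiles 27.9 and 32.7 of 971, with pooled RRTS of 0.157 and 0.182. Their untreated pooled scores were 0.0406 for CANX and 0.00921 for PDIA4.

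In untreated cells PDIA3 stood at percentile 90.5 of 700 transcripts with UAAA, whose median RRTS was 0. Of those transcripts 50.4% had no extension read, and all 8 members were at or above percentile 83.2 of CDS level, and the part of read depth in the untreated percentiles was not tested. The untreated percentiles of the other 5 tested members ran from 50.4 for PDIA4 to 72.6 for PDIA6. The deposited stop codons of HYOU1 and P4HB were at percentile 6.04 of UGAG and percentile 8.23 of 759 transcripts with UGAC in G418, whose median was 0.389.

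**Figure D5:**
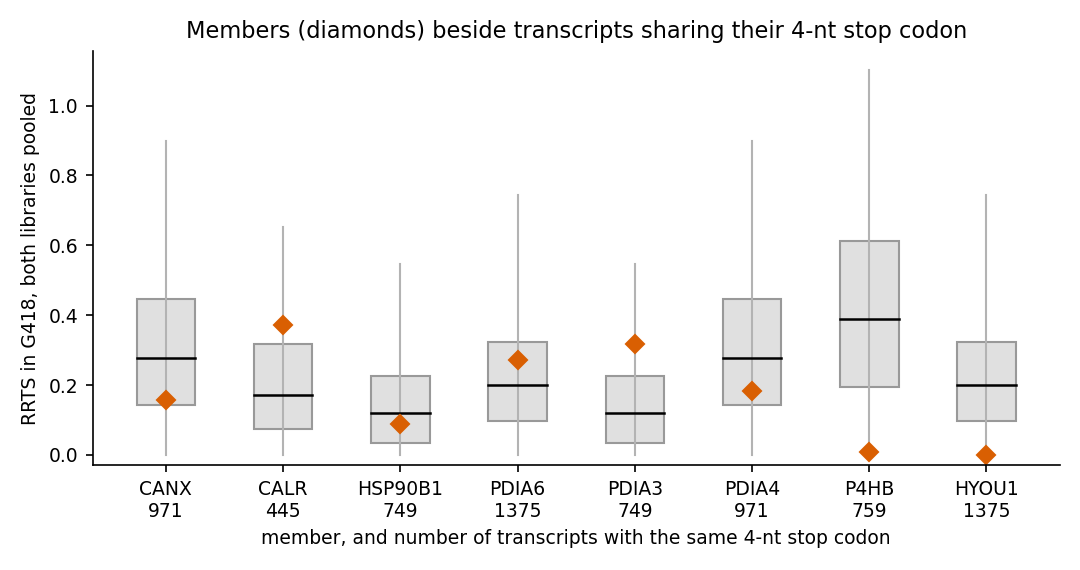
Pooled RRTS in G418 of each member (diamonds) beside all transcripts with the same 4-nt stop codon. Boxes are the middle 50%, black lines the median and grey lines the 5th to 95th percentiles, with the number of transcripts under each name. CALR and PDIA3 lie above their boxes, and P4HB and HYOU1 lie below theirs.

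Summed over the 8 members, RRTS was 0.0377 and 0.0489 untreated and 0.196 and 0.197 with G418. Summed in the same way over all transcripts past that minimum it was 0.0199 and 0.0181 untreated and 0.159 and 0.152 with G418. PDIA3 gave 54 of the untreated extension reads of the members. Without it the sums were 0.0242 and 0.0284 untreated and 0.170 and 0.179 with G418.

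Reads after the first 3′TC were less dense than reads before it in all 6 tested members. PDIA3 had 0 and 2 untreated reads and 2 and 2 G418 reads in the 1931 nt after its 3′TC, a density of at most 0.670% of that before it. In G418 the density after the 3′TC was 4.34% and 4.09% of that before it in CALR, 5.66% and 5.21% in PDIA4, 3.45% and 2.81% in PDIA6, 9.52% and 8.47% in CANX and 10.2% and 8.14% in HSP90B1. The counts were also higher with the drug in several genes. PDIA4 had no read in 576 nt in either untreated library and 15 and 10 with G418, and CALR had 6 and 6 reads untreated and 51 and 47 with G418. These counts were not tested.

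Transcripts whose last 3 codons encode 2 acidic residues and leucine were then set beside all others. The class was set by these codons alone, and whether each of its proteins is retained in the ER was not tested. Of 6944 transcripts that matched GENCODE version 44 in identifier, CDS length and stop codon and had enough G418 reads, 44 encoded 2 acidic residues and leucine as their last 3 codons. They included 5 of the members (HSP90B1, CALR, PDIA3, PDIA4 and PDIA6), and 22 were in any list used here. Their median RRTS in G418 was 0.273 (quartiles 0.168 and 0.465), beside 0.206 (0.0912 and 0.380) for the other 6900, and single values ran from 0 to 1.47. The class was also higher in untreated cells, with a median of 0.0256 over 42 of them beside 0 over 6251 of the others. Of all 6514 transcripts past the untreated minimum, 50.4% had no untreated extension read. Read depth was not compared between the sets. UGA ended 45.5% of the 44 and 50% of the others, and UAA ended 36.4% and 27.8%. The median number of codons to the 3′TC was 27.5 and 22. These are descriptions, and no difference between the sets was tested.

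The third comparison asked whether ribosomes before the start codon changed relative to the CDS. Of 3656 transcripts tested, 1 was higher (0.0274%) and 62 were lower (1.7%) in G418. None of the 5 members with at least 20 5′UTR reads passed in edgeR, and DESeq2 gave none of them an adjusted p. The lowest unadjusted edgeR p of the 5 was 0.025, for CALR. CALR had 43, 30, 29 and 30 5′UTR reads in Untreated A, Untreated B, G418 A and G418 B, or 6.12, 10.7, 3.78 and 4.82 per 1000 CDS reads. Both G418 values were below both untreated values, with a log2 fold change of -0.88 ± 0.35 and an edgeR adjusted p of 0.27. How many of all transcripts tested separate in this way was not counted. It passed only without Untreated A, at -1.32. The fitted log2 fold changes were -0.62 ± 0.55 for PDIA3, -0.33 ± 0.36 for PDIA6, -0.19 ± 0.35 for PDIA4 and 0.36 ± 0.46 for HYOU1, beside a median of -0.16 over all tested. HSP90B1, CANX and P4HB had between 0 and 5 5′UTR reads per library.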

How the data were processed

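The authors collapsed reads by molecular identifier, discarded noncoding RNA, aligned with STAR to hg38 guided by GENCODE version 30 and kept 1 alignment per read. Footprints of 28 to 35 nt were assigned to 1 transcript per gene with at least 5 codons before the 3′TC. The deposited count columns are raw reads per region. The deposited RPM columns gave whole reads for 100% of values (tolerance 0.01 reads), RPKM is RPM per kilobase as the authors computed it, and the deposited RRTS is a ratio of densities. The submitters' processing notes also name CASAVA 1.8. The 5′UTR density score in the deposited tables was not used.

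CDS counts, extension reads and 5′UTR reads were tested with edgeR 4.0.16 (TMM, quasi-likelihood, Benjamini-Hochberg, threshold 0.05), the latter 2 with log(CDS reads + 0.5) as offset, on transcripts in all 4 libraries. RRTS needed at least 10 extension reads and 128 mRNA reads per condition, and 5′UTR reads at least 20. DESeq2 1.42.0 was an alternative. Scripts were tested on simulated data. Standard errors are the fold change over the root of F. Exact Poisson and binomial intervals are at 95%. Deposited CDS counts were equal to or 1 below the whole reads from RPM.

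The members and lists were chosen with earlier results of these data known. All members were named, and in each other list the 2 largest rises and falls among genes past the threshold and moving alike in A and B, plus preset receptors and sensors. A gene that this rule names is not reported here. The C-terminal signal was to be read from a protein table that was not used here, and was read from GENCODE version 44 codons instead. DDIT3, EIF2AK3 and KDELR2 were not analysed here.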

Additional observations from a re-analysis of the deposited data

How the results depend on the processing

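With library totals the CDS counts were 887 higher and 120 lower with 4 members called, and ERN1 and ATF6 turned to 0.062 and 0.039. The DESeq2 Wald test gave 109 higher and 134 lower for CDS reads, 1372 and 0 for RRTS and 0 and 39 for 5′UTR reads. For 5′UTR reads it gave an adjusted p for 750 transcripts and for no member. With the whole 3′UTR in the RRTS fit, edgeR called 2871 of 4086 transcripts higher and 10 lower. A minimum of 20 extension reads left 1536 higher, fewer transcripts being tested, and a minimum of 40 5′UTR reads left 0 higher. Leaving out 1 library, which assumes that the lone library of a condition varies like the other condition, gave 57 to 990 higher, 15 to 1092 lower and 0 to 4 members called for CDS reads, 1331 to 2177 higher and 1 to 2 lower for RRTS, and 0 to 52 higher, 7 to 278 lower and 0 to 1 members called for 5′UTR reads. The same fits turned the sign of P4HB (-0.25 to 0.48), PDIA3 (-0.0035 to 0.15), HYOU1 (-0.023 to 0.073), ERN1 (-0.12 to 0.13) and ATF6 (-0.13 to 0.028), and of PDIA4 for 5′UTR reads (-0.49 to 0.017). The cause was not tested.

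The letters A and B are not stated to mark shared cultures, and A minus B deviations correlated across 8494 transcripts at 0.136 between conditions. With replicate letter as a block, CDS calls were 618 higher and 452 lower with 0 members, RRTS calls 1852 and 2 with 6 members, and 5′UTR calls 6 and 84 with 0 members. No member's call changed.

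The share of CDS reads without HSP90B1 (HSPA5 was not listed) was 0.561% untreated and 0.659% with G418. RRTS as the median over members was 0.0221 and 0.169. With the 6 members at their own stop codon, chosen after seeing the data, it was 0.0459 and 0.207, and without PDIA3, also chosen afterwards, 0.0263 and 0.174. All 6 tested members stayed called for RRTS under every alternative except HSP90B1 with DESeq2 and without Untreated A. Between 1 and 4 extension reads lay behind each untreated PDIA4 and CALR score, which limits the precision of their fold changes.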
